A study of Mus musculus with 3 samples.

Results

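The genes described here are 47 genes of DNA replication and deoxynucleotide supply, out of 24421 gene symbols counted in mouse haematopoietic stem and progenitor cells (HSPCs). They were chosen by symbol, as the subunits of the machinery that licenses, unwinds and copies DNA, together with 3 genes of the enzymes that supply its building blocks. All 47 have an entry in every library, and all 47 reached a mean of at least 1 CPM (counts over the library's gene counts, scaled to 1000000), against 53.1% of all gene symbols. The list was drawn up with earlier results of these data known, so that count may partly reflect the choice. RNA was sequenced from 3 control libraries of a study on loss of Capicua (Cic), a transcriptional repressor, in T cell development and leukaemia. The control mice were C57BL/6 with both Cic alleles floxed (Cicflox/flox), and they had received tamoxifen. The labels name no Cre driver, age or sex for them and do not say whether each library came from a separate animal, so the spread between libraries may be technical. The HSPCs were bone marrow cells enriched on beads for c-Kit and sorted as c-Kit+ Sca-1+ cells without the lineage markers of T cells (CD4, CD8a), B cells (B220), myeloid cells (CD11b, Gr-1) or erythroid cells (Ter119). The other mouse group was not analysed here, so no comparison between genotypes was made.

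A cell prepares to copy its DNA by loading ring-shaped MCM helicases onto origins, a step called licensing, which the origin recognition complex, Cdc6 and Cdt1 carry out and geminin (Gmnn) blocks once replication has begun. Cdc45 and the GINS complex then turn the loaded ring into a moving helicase, primase and the polymerases follow it, and the PCNA clamp holds the polymerases on DNA. Most of these genes are known targets of the E2F transcription factors, which are held in check by the retinoblastoma protein family until a cell commits to divide. Most haematopoietic stem cells are quiescent, whereas the progenitors sorted with them divide often.

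Libraries 1, 2 and 3, numbered as in their titles, held 30718562, 25097769 and 30032593 gene counts. Library 1 stood apart: beyond read counting, 63.9% of genes at 1 CPM or more differed between libraries 1 and 2 and 67.0% between libraries 1 and 3, but 51.4% between libraries 2 and 3. The 47 genes together held 0.442% of gene counts in library 1, 0.515% in library 2 and 0.518% in library 3. Of the sort markers, the receptor gene Kit had 826 ± 71.0 CPM and the Sca-1 gene Ly6a 103 ± 9.50 CPM (SD, n = 3, as for every value with ± here). Of other cell types, 10 T and NK cell genes summed to 110 to 128 CPM per library. Most of it came from the cytotoxic granule gene Nkg7 at 90.1 ± 7.25 CPM. Cd3d, Cd3e, Cd3g, Cd8a and Cd8b1 each averaged under 1 CPM. Lck, Cd4, Cd28 and Klrb1c averaged 13.7 ± 1.59, 8.97 ± 5.46, 4.84 ± 0.229 and 1.96 ± 0.53 CPM. Cd4, the gene of a marker sorted against, had 15.2, 5.02 and 6.69 CPM in libraries 1, 2 and 3. The 8 B cell genes summed to 77.4 to 94.1 CPM per library, and the haemoglobin genes Hba-a1 and Hbb-bs were listed at 0.

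Promoter sequences are shown first, because a shared sequence word was the clearest feature of these genes that their choice did not use. RefSeq (GRCm38.p6, the assembly of mm10) gave at least 1 promoter of 300 bases, from 250 before to 50 after the annotated start, for 38 of the 47 genes. No entry was used for Mcm4, Gmnn, Gins1, Gins2, Gins4, Rfc2, Prim2, Pole and Tipin. Words of the E2F site were searched on both strands, spelled TTTGGCGC, TTTCGCGC, TTTCCCGC and TTTGCCGC, and a match describes the letters only. Words on opposite strands can overlap, and each was then counted. For a gene with several promoter entries, a match in any of them was counted. At least 1 such word was present for 15 of 38 members (39.5%), against 451 of 9815 genes at 1 CPM or more with a promoter entry (4.60%) and 704 of all 27025 genes with an entry (2.60%). Of the members, 5 held at least 2 words, against 0.245% of the genes at 1 CPM or more. The fourth word, TTTGCCGC, was found in none of the members' promoters. Base composition was alike, with a median GC content of 62.2% for the members and 61.7% for the genes at 1 CPM or more.

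The promoters of Mcm5 and Mcm6, which encode subunits of the replicative helicase, were the only ones with at least 2 words before the start, and are printed whole up to the start. Capitals mark E2F words and CCAAT boxes on either strand (ATTGG is CCAAT read on the other strand). Both hold a pair of E2F words on opposite strands that overlap in the letters GCGC. Coordinates are GRCm38.p6, and each sequence runs 5′ to 3′ on the strand of the gene.
Mcm5, chr8:75109259-75109508, plus strand: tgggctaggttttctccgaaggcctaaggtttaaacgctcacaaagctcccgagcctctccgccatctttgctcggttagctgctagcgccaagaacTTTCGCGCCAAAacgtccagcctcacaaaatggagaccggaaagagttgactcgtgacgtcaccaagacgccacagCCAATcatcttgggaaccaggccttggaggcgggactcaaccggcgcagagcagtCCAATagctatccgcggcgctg
Mcm6, chr1:128359706-128359955, minus strand: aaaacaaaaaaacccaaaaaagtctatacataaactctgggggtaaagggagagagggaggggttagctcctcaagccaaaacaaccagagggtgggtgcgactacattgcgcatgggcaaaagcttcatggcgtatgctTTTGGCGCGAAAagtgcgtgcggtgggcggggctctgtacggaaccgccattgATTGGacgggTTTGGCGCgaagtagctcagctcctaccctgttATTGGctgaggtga
The third word of Mcm6 begins 47 bases before the start, next to a CCAAT box that begins 57 bases before it.

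A further 7 members held a word before the start, in a part of at most 60 bases that is printed so that the words can be compared. Capitals mark the E2F word here.
Orc1, chr4:108579401-108579453, plus strand: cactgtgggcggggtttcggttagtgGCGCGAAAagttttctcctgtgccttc
Orc3, chr4:34614950-34615009, minus strand: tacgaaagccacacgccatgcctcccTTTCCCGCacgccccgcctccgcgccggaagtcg
Cdc6, chr11:98907987-98908046, plus strand: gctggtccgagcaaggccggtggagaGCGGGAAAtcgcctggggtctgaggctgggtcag
Mcm7, chr5:138172015-138172074, minus strand: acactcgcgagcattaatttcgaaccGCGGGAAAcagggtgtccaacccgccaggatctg
Gins3, chr8:95633492-95633551, plus strand: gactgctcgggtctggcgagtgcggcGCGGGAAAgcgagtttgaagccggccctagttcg
Pola1, chrX:93632260-93632319, minus strand: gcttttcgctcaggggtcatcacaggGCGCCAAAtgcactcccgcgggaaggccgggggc
Rfc3, chr5:151651209-151651244, minus strand: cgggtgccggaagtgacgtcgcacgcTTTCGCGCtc
The words of Cdc6, Mcm7 and Gins3 are the same letters, TTTCCCGC read on the other strand, as is the word of Orc3 on the strand of the gene. In Rfc3 the word begins 10 bases before the start, in Orc1 27 bases, in Orc3 and Gins3 41 bases, in Cdc6 and Pola1 138 bases and in Mcm7 165 bases before it. In the other 6 of the 15 members (Cdt1, Mcm3, Pold1, Pold3, Pole2 and Lig1) the words lay between 10 and 39 bases after the start. Counted over the 250 bases before the start alone, 9 of 38 members (23.7%) held a word, against 3.83% of the genes at 1 CPM or more.

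**Figure D1:**
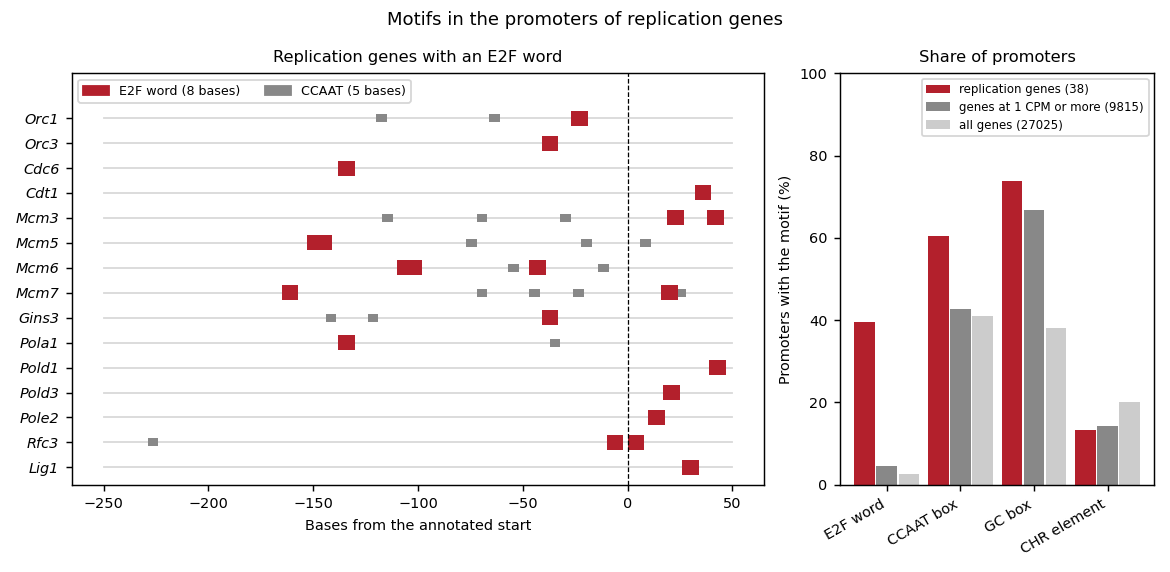
Left, positions of E2F words (red) and CCAAT boxes (grey) in the promoters of the 15 replication genes with an E2F word, in bases from the annotated start (dashed line). Right, percent of promoters of 300 bases with each motif, for 38 replication genes, 9815 genes at 1 CPM or more and all 27025 genes with an entry, where the E2F word stands at 39.5%, 4.60% and 2.60%.

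CCAAT, the box bound by NF-Y, was found on either strand in 23 of 38 member promoters (60.5%), against 42.6% of the genes at 1 CPM or more and 41.1% of all genes. The GC box GGGCGG lay in 73.7% of member promoters, against 66.8% of the genes at 1 CPM or more. TTTGAA, a core of the element through which many mitotic genes are controlled, lay in 13.2% of member promoters, against 14.4%. The members with an E2F word had a median level of 19.7 CPM per kilobase of exon, and the 23 with a promoter entry and no word a median of 17.7 CPM per kilobase. Both sets ran over a wide range, 5.99 to 83.0 CPM per kilobase with a word and 4.03 to 172 CPM per kilobase without one, so the ranges overlap.

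Many replication genes also start beside another gene that points away from them. With GENCODE M21 gene models (mm10 coordinates), 15 of 47 members (31.9%) had the start of a gene on the other strand within 1 kb upstream, against 1965 of 12451 genes at 1 CPM or more with a model (15.8%). For 8 of the 15 the neighbour is protein-coding (17.0% of members, against 10.8%), and the others are mostly long non-coding RNA genes. The closest protein-coding pair is Orc3 and the mitochondrial arginyl-tRNA synthetase gene Rars2, with starts 13 bases apart. Orc3 averaged 244 ± 15.2 CPM there and Rars2 42.5 ± 1.79 CPM. Mcm4 and Prkdc, which encodes the catalytic subunit of a DNA repair kinase, start 466 bases apart and averaged 206 ± 11.8 and 196 ± 23.6 CPM. Pole, the catalytic subunit gene of the leading-strand polymerase, starts 120 bases from the peroxisomal gene Pxmp2. Pole averaged 181 ± 8.38 CPM and Pxmp2 2.34 ± 0.498 CPM. These values are not corrected for length, so they give each gene's own abundance and spread.

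CPM grows with transcript length, so levels of different genes were compared per kilobase of all annotated exons of the gene joined together. The median member stood at 17.4 CPM per kilobase (SD of the 3 library medians 2.04), against 6.45 CPM per kilobase for the median of 12451 genes at 1 CPM or more. Of the 47 members, 44 lay above that median, 30 in the top 25% and 10 in the top 10% of those genes. With the longest annotated transcript in place of all exons the medians were 28.6 and 8.74 CPM per kilobase, and 45 members lay above. Over joined exons, the 3 members below the median of all genes were Orc4, Orc5 and Gins3. By the longest transcript Orc4 lay above it, at 11.5 CPM per kilobase.

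The clamp stood first. Pcna encodes the sliding clamp that ties the polymerases to DNA (chromosome 2, 132249162 to 132253314), and its counts were 10809, 11270 and 13220 in libraries 1, 2 and 3, or 352, 449 and 440 CPM. Its level of 172 ± 22.4 CPM per kilobase was above that of 98.9% of genes at 1 CPM or more. Part of its sequence recurs in the pseudogene Pcna-ps2, with 19.1% of its 50-base words shared. The authors' files tally reads with several alignments apart from the genes, so its count is uncertain. The clamp loader, which opens the ring and closes it on DNA, was lower by far. Its large subunit gene Rfc1 stood at 27.0 ± 0.840 CPM per kilobase and the small subunit gene Rfc4 at 25.7 ± 1.01. The other small subunit genes Rfc5, Rfc2 and Rfc3 stood at 10.4 ± 0.188, 9.93 ± 1.43 and 6.68 ± 0.738 CPM per kilobase, the lowest being Rfc3 with 662, 602 and 807 counts in libraries 1, 2 and 3. The small subunits occur once each in the complex, and their genes spanned a 3.84-fold range of levels. Exons of Rfc2, Rfc4 and Rfc5 overlap genes on the other strand over 10.7% to 15.1% of their length, where counts are uncertain.

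The helicase genes had the highest median level of the 10 roles. Mcm2 to Mcm7 encode the 6 subunits of the ring, which contains each of them once, and their median was 49.5 CPM per kilobase. Mcm6 (chromosome 1, 128331590 to 128359664) led with 9751, 10183 and 13154 counts in libraries 1, 2 and 3, or 68.0, 87.0 and 93.9 CPM per kilobase. Mcm4, Mcm3 and Mcm7 followed at 57.5 ± 3.28, 53.6 ± 7.29 and 45.4 ± 6.16 CPM per kilobase. Mcm7 hosts the microRNA genes Mir25 and Mir93 and has 23.3% of its words in common with Gm5487, Ap4m1 and Mir93, which makes its count uncertain. Mcm5 stood at 27.8 ± 6.38 and Mcm2, with 4511, 4384 and 5298 counts, at 23.9 ± 2.39 CPM per kilobase, making a 3.48-fold range within the ring (SD 0.199 over the libraries). Part of that range rests on the gene models, since all exons of Mcm2 together are 6956 bases long and its longest transcript 3494. By the longest transcript Mcm2 stood at 47.5 CPM per kilobase, Mcm5 was lowest at 32.8, and the range was 2.71-fold, with Mcm6 still highest.

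**Figure D2:**
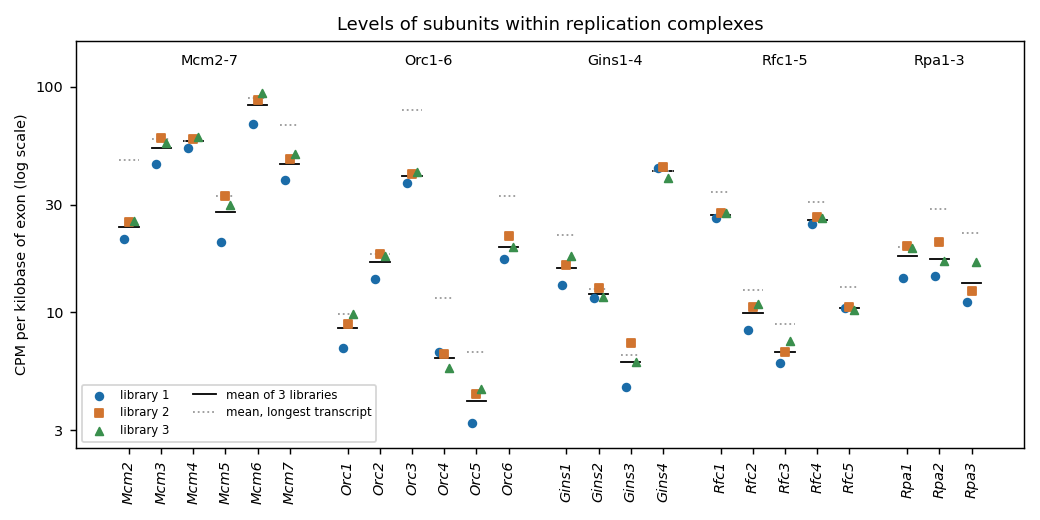
Level of each subunit gene in 5 replication complexes, in CPM per kilobase of annotated exon on a log axis. Symbols are the 3 libraries, black lines their mean, and dotted lines the mean per kilobase of the longest transcript. Mcm6, Orc3 and Gins4 stood highest in their complexes and Orc5 and Gins3 lowest in theirs by either length.

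Genes of the origin recognition complex, which marks origins and loads the helicase, had the widest range of the 5 complexes compared. Orc3 (chromosome 4, 34570796 to 34614944) had 6969, 6272 and 7671 counts in libraries 1, 2 and 3, or 40.1 ± 2.49 CPM per kilobase. Orc5 (chromosome 5, 22486485 to 22550429) had 612, 669 and 841 counts, or 4.03 ± 0.702 CPM per kilobase, the lowest level of all 47 members per kilobase of joined exons (by the longest transcript Gins3 was lower, at 6.45 against 6.64). The range between them was 9.94-fold (SD 1.26) and 11.9-fold by the longest transcript. Orc6, Orc2, Orc1 and Orc4 fell between, at 19.5 ± 2.35, 16.7 ± 2.29, 8.54 ± 1.46 and 6.28 ± 0.569 CPM per kilobase, and the order of the 6 genes was the same in all 3 libraries. Orc2 overlaps Nif3l1 over 29.8% and Orc1 overlaps Gm12743 over 10.8% of its exon length, each on the other strand, so both counts are uncertain. Orc1, the subunit that is lost and remade in each human cell cycle, stood at 0.512 ± 0.0350 times the level of Orc2.

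Licensing also needs Cdc6 and Cdt1. Cdc6, the loader ATPase, had 1654, 1684 and 1717 counts in libraries 1, 2 and 3, or 11.4 ± 1.32 CPM per kilobase. Cdt1, which brings the helicase to the origin, stood at 17.0 ± 0.946 and its inhibitor gene Gmnn, with 643, 691 and 794 counts, at 17.0 ± 2.42 CPM per kilobase. The ratio of Cdt1 to Gmnn per kilobase of joined exons was 1.12, 0.947 and 0.949 in libraries 1, 2 and 3. By the longest transcript it was 0.891, so it depends on the length used. In a dividing cell the geminin protein is present when Cdt1 is destroyed, and the bulk RNA holds both transcripts together.

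Genes that activate the loaded helicase had a lower median than the ring itself, 13.2 CPM per kilobase, although Gins4 stood above Mcm5 and Mcm2 over joined exons (above Mcm5 alone by the longest transcript). Gins4 was highest with 1804, 1492 and 1593 counts in libraries 1, 2 and 3, or 42.3 ± 2.60 CPM per kilobase. Gins3 (chromosome 8, 95633453 to 95645060) was lowest with 388, 497 and 489 counts, or 5.99 ± 1.32 CPM per kilobase. The GINS complex holds its 4 subunits once each, and the range of their genes was 7.06-fold (SD 1.78). Gins1 and Gins2 stood at 15.7 ± 2.38 and 12.0 ± 0.633 CPM per kilobase. Gins2 overlaps Gse1 on the other strand over 67.3% of its exon length, so its count is uncertain. Cdc45, the helicase partner of GINS, stood at 14.5 ± 1.35 and Mcm10, which helps the activated helicase to start, at 7.44 ± 0.889 CPM per kilobase.

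Among the polymerase genes, catalytic and accessory subunits had no common order. Prim1, the catalytic subunit of primase, had 2942, 2487 and 3292 counts in libraries 1, 2 and 3, or 26.2 ± 1.87 CPM per kilobase. Its partner Prim2 had 1349, 1189 and 1512 counts, or 7.95 ± 0.542. They were the highest and the lowest of the role by mean level over joined exons, but not in each library, and by the longest transcript Pold3 was highest at 37.5 and Pold1 lowest at 11.9 CPM per kilobase. The ratio of Prim1 to Prim2 was 3.30 ± 0.0775 over all exons and 1.68 by the longest transcript. Pola1 and Pola2 of the same enzyme stood at 19.7 ± 2.02 and 8.77 ± 1.07 CPM per kilobase. Their ratio was 2.29 ± 0.50 over all exons and 1.29 by the longest transcript. Of polymerase delta, which copies the lagging strand, the catalytic gene Pold1 stood at 8.59 ± 0.298 with 1286, 1009 and 1294 counts, and the accessory genes Pold2 and Pold3 at 25.4 ± 1.51 and 25.0 ± 1.63 CPM per kilobase. Pole and Pole2 of the leading-strand polymerase stood at 16.2 ± 0.751 and 17.4 ± 2.31 CPM per kilobase.

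The single-strand binding protein RPA is a trimer, and its genes were the most even of the 5 complexes. Rpa1, Rpa2 and Rpa3 stood at 17.7 ± 3.06, 17.3 ± 3.09 and 13.4 ± 2.88 CPM per kilobase, a range of 1.32-fold. Rpa1 had 2423, 2752 and 3217 counts and Rpa3 389, 355 and 568 counts in libraries 1, 2 and 3. The libraries of the 3 genes overlap per kilobase, and by the longest transcript Rpa2 was highest and Rpa1 lowest. In the joining of Okazaki fragments, the ligase gene Lig1, with 6411, 5340 and 6505 counts, stood at 49.8 ± 0.925 and the flap nuclease gene Fen1 at 14.4 ± 3.07 CPM per kilobase. Fen1 is overlapped by Tmem258 and Gm10143 on the other strand over 84.2% of its exon length, so its count, 820, 930 and 1234 in libraries 1, 2 and 3, is uncertain. Of the genes that keep forks stable, Tipin, with 1562, 1705 and 2215 counts in libraries 1, 2 and 3, stood at 34.3 ± 6.37 CPM per kilobase. Its protein works as a pair with that of Timeless, which had 1257, 1425 and 2115 counts and stood at 9.16 ± 2.42. The ratio of Tipin to Timeless was 3.80 ± 0.334 per kilobase of joined exons and 2.845 by the longest transcript. Wdhd1, which links the helicase to polymerase alpha, had 4615, 3994 and 4521 counts and stood at 20.9 ± 0.688.

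Nucleotide supply genes were abundant. Ribonucleotide reductase makes deoxynucleotides from a large subunit (Rrm1) and a small one (Rrm2). Rrm1 had 7074, 7145 and 8904 counts in libraries 1, 2 and 3, or 271 ± 35.3 CPM, and Rrm2 had 2809, 2836 and 3529 counts, or 107 ± 13.9 CPM. Both were lowest in library 1, and their ratio hardly moved, with 0.397, 0.397 and 0.396 counts of Rrm2 per count of Rrm1. Per kilobase the ratio of Rrm2 to Rrm1 was 1.58 over all exons and 0.991 by the longest transcript, so which of them stands higher depends on the gene model. Tyms, the thymidylate synthase gene, had 4204, 3913 and 4456 counts and stood at 147 ± 9.60 CPM or 24.2 ± 1.58 CPM per kilobase.

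**Figure D3:**
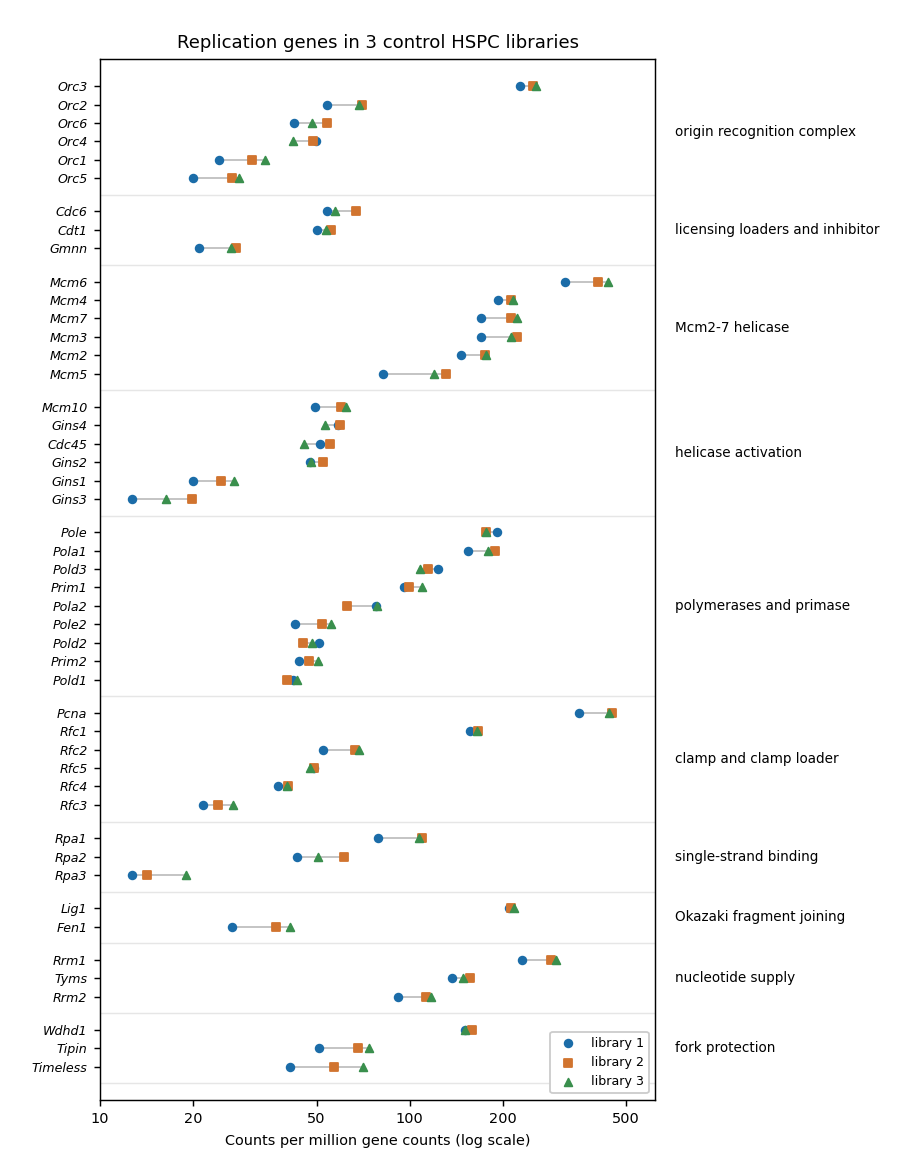
Level of each of the 47 genes in libraries 1 (circles), 2 (squares) and 3 (triangles) in CPM on a log axis, grouped by role. CPM does not correct for length, so positions are compared within a gene. In 38 of the 47 rows library 1 is the lowest.

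The members lay lower in library 1 than in the others. In CPM, 38 of 47 were lowest in library 1, against 44.3% of genes at 1 CPM or more, 3 in library 2 (23.6%) and 6 in library 3 (32.1%). Scaled by the TMM factors of edgeR, which set libraries level over most genes, 34 were lowest in library 1, against 38.4% of genes. Rn45s, the ribosomal RNA precursor gene, took 11.8%, 8.20% and 7.91% of gene counts in libraries 1, 2 and 3 and is part of the CPM total. Without it in the total, 34 members were again lowest in library 1, against 37.3% of genes, and the 47 genes held 0.501%, 0.561% and 0.562% of the other gene counts. The part of RNA quality in the shift was not tested. Each library was also set against the mean of the other 2 on a log2 scale, and the median of all genes at 1 CPM or more was taken off. On that scale the median member lay at -0.21 in library 1, 0.06 in library 2 and 0.13 in library 3, and only 11 of 47 members lay above the median of all genes in library 1. In bulk RNA, fewer dividing cells and less of these transcripts per cell cannot be told apart.

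**Figure D4:**
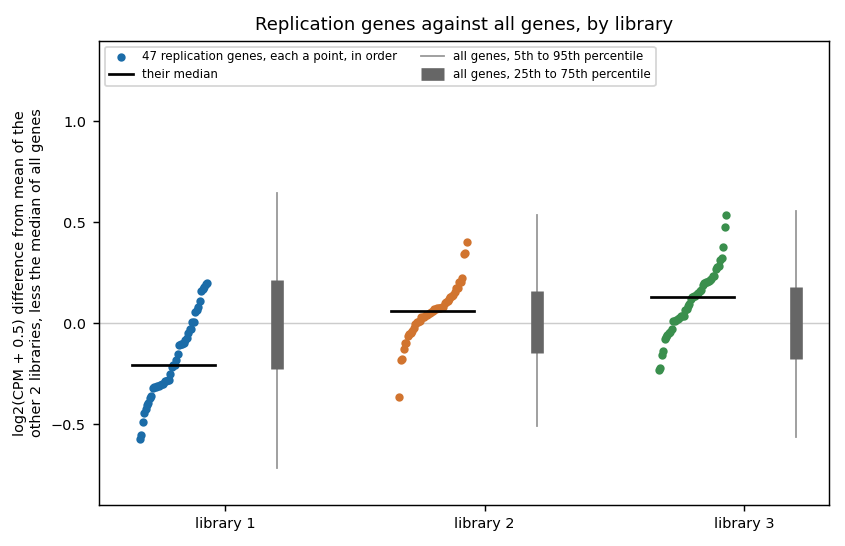
Log2(CPM + 0.5) difference between each of the 47 genes (points, sorted) and its mean in the other 2 libraries, less the median of all genes, with the percentiles of all genes at 1 CPM or more beside them. The medians of the replication genes lie at -0.21, 0.06 and 0.13 in libraries 1, 2 and 3.

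The same difference is given for each role, and differences between roles were not tested. All 6 genes of the helicase ring, all 3 RPA genes, all 3 nucleotide supply genes and all 3 licensing genes (Cdc6, Cdt1 and Gmnn) were lowest in library 1, by CPM and by the TMM and DESeq2 scalings alike, with median differences less all genes of -0.30, -0.32, -0.28 and -0.15 there. The 3 fork protection genes had a median of -0.43, and all 3 were lowest in library 1 by CPM, but not Wdhd1 by either scaling. The origin recognition, Okazaki fragment joining, helicase activation, and clamp and clamp loader genes had medians of -0.26, -0.24, -0.14 and -0.12. In that order, 5 of 6, 2 of 2, 4 of 6 and 5 of 6 were lowest in library 1 by CPM, and 5, 1, 3 and 5 by TMM. Of the 9 polymerase and primase genes 4 were lowest in library 1 (3 by either scaling), against 44.3% of genes at 1 CPM or more, and 3, Pole, Pold2 and Pold3, were highest there, against 31.9%. Both counts are near the shares of all genes, and the median was 0.06 relative to all genes. Mcm5 had 82.2, 131 and 120 CPM in libraries 1, 2 and 3. Timeless had 40.9, 56.8 and 70.4 CPM, the widest range of any member at 1.71-fold on the CPM + 0.5 scale. After these came Gins3, Fen1 and Rpa3, with ranges of 1.55-fold, 1.53-fold and 1.48-fold. At the other end, Rfc5 had 48.9, 49.1 and 47.5 CPM, a range of 1.03-fold, and Lig1 209, 213 and 217 CPM, a range of 1.04-fold. Rfc1, Wdhd1 and Pold1 followed with ranges of 1.06-fold, 1.06-fold and 1.07-fold. No member ranged over 2-fold, against 8.70% of genes at 1 CPM or more.

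Related lists did not all share the pattern. Of genes at 1 CPM or more, 44.3% were lowest in library 1 and 23.6% in library 2. Of 22 other nucleotide supply genes, among them the purine synthesis gene Paics, 18 were lowest in library 1, with a median of -0.25 relative to all genes. Of 24 other genes of the replication machinery 11 were lowest in library 1 (of 23 at 1 CPM or more) with a median of 0.02, and of 20 replication kinase, E2F and retinoblastoma family genes 8, with a median of 0.05. Both of these counts are near the share of all genes. Of 16 mitotic genes 4 were lowest in library 1 and 12 in library 2, with medians of -0.01 in library 1 and -0.18 in library 2. Quiescence and stem cell genes were highest in library 1 for 9 of 16 members, against 31.9% of genes at 1 CPM or more, with a median of 0.24 relative to all genes there.

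Marker lists of blood lineages also differed between libraries. The 12 granulocyte and monocyte progenitor genes summed to 1187, 2225 and 3326 CPM in libraries 1, 2 and 3, with 11 of 12 at 1 CPM or more. Of these 11, 9 were lowest in library 1, against 44.3% of genes at 1 CPM or more. The other 2 were highest there, against 31.9%. Mpo, the myeloperoxidase gene, alone had 683, 1544 and 2403 CPM. Csf3r, the next highest by mean CPM, fell instead, with 284, 243 and 231 CPM. The 12 erythroid genes, 10 of them at 1 CPM or more, summed to 178, 307 and 349 CPM. The transferrin receptor gene Tfrc, also expressed by dividing cells in general, made up most of that. Hba-a1 and Hbb-bs were at 0, with the limit given above, but Car1 had 16.2, 61.6 and 98.6 CPM in libraries 1, 2 and 3. The 10 neutrophil genes, 8 of them at 1 CPM or more, summed to 326, 172 and 245 CPM, highest in library 1 and lowest in library 2. All 8 were lowest in library 2, against 23.6% of genes at 1 CPM or more. Itgam, the gene of the sort marker CD11b, held 141, 128 and 144 CPM of these sums in libraries 1, 2 and 3. Ngp, the next highest, had 80.1, 15.4 and 34.1 CPM. Whether these transcripts came from other cells or from the sorted progenitors was not tested. Nor was the part of cell composition, or of library 1 itself, in the lower level of the replication genes.

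How far single members differed between libraries was read against counting noise and against genes of like abundance. By a chi-square test on the 3 counts with Benjamini-Hochberg adjustment over 12965 genes, 39 of 47 members (background 82.3%) differed between libraries beyond read counting. The 8 that did not pass were Cdt1, Gins2, Pold1, Rfc1, Rfc4, Rfc5, Lig1 and Wdhd1. Between libraries 2 and 3 alone 22 members passed (background 51.4%), against 33 between libraries 1 and 2 (63.9%) and 36 between libraries 1 and 3 (67.0%). With edgeR's quasi-likelihood fit no member varied more than genes of like abundance (background 0.00771%, 1 of 12965 genes), and the smallest adjusted p among members was 0.982. At an unadjusted p under 0.05 there were 2 members, Mcm5 and Timeless, and 588 of all genes. The median coefficient of variation was 11.9% over the members and 13.2% over all genes at 1 CPM or more.

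The other genes of the pathway were measured beside the members. Of 24 further replication genes, 23 passed the minimum of 1 CPM, and the median was 9.89 CPM per kilobase, against 17.4 for the members. Topbp1, which recruits Cdc45 to origins and activates the checkpoint kinase ATR, had 394 ± 29.5 CPM, or 35.1 CPM per kilobase, and Pold4, the smallest subunit of polymerase delta, was below the minimum with 20, 5 and 21 counts in libraries 1, 2 and 3. The 20 replication kinase, E2F and retinoblastoma family genes were all above the minimum too, and their median was 11.1 CPM per kilobase. The E2F partner gene Tfdp1 had 280 ± 31.2 CPM and was highest per kilobase at 76.3, followed by the S phase cyclin gene Ccna2 with 198 ± 10.2 CPM and 48.4 CPM per kilobase. The repressor gene Rbl2 had 176 ± 17.4 CPM, or 23.2 CPM per kilobase. The G1/S cyclin gene Ccne1 was lowest per kilobase at 3.04, with 8.09 ± 1.24 CPM. The 22 other nucleotide supply genes were all above the minimum, their median was 23.9 CPM per kilobase, and Paics was highest at 303 CPM per kilobase, with 951 ± 12.8 CPM. So were the 11 checkpoint genes, at a median of 6.22 CPM per kilobase, led by Wee1, the kinase that holds back mitosis, at 55.8 CPM per kilobase and 191 ± 4.21 CPM. The 16 mitotic genes had a median of 23.1 CPM per kilobase and the 16 quiescence and stem cell genes 7.82 CPM per kilobase.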

How the data were processed

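RNA of 3 control HSPC libraries was analysed. Per the labels' protocols, cDNA was amplified from 10 ng of RNA with the NuGEN Ovation system, primed at poly(A) tails and at random, and sheared for inserts of 400 bp, so counts are not independent molecules. The authors deposited raw read counts per gene symbol, with TopHat2 2.0.9, HTSeq, DESeq2 and mm10 named in the submitters' processing notes. For the gene model and the strand setting nothing is given in the sources used here, and a gene was therefore called uncertain where over 10% of its exon bases lie in another gene or over 10% of its words recur elsewhere. In each file 92 ERCC spike-in rows and 5 category rows were left out. These category rows and the spike-ins made up 61.8%, 65.9% and 60.0% of all entries in libraries 1, 2 and 3.

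CPM was the count over the total of gene rows. The level that a count of 0 allows is 0.0977 to 0.120 CPM (3 counts), counting error only. Of the symbols, 95.6% matched 1 GENCODE M21 gene, whose joined exons gave lengths. Shared words are 50-base words of a gene's transcripts found in other genes. Logs used a pseudocount of 0.5 CPM, which understates differences of low genes. Tests covered the 12965 genes whose mean reached 1 CPM. They were a chi-square test against TMM-scaled library sizes, and edgeR 4.0.16's quasi-likelihood fit with an intercept only (robust), whose dispersion per gene was set against the trend by an F test, both with Benjamini-Hochberg adjusted p under 0.05. The text names all members, and of other lists at most the 3 highest and the lowest gene by mean CPM. Outside that rule, head-to-head and overlapping neighbours, Rn45s and the T and NK cell genes other than Nkg7, Lck, Cd4 and Cd3e were named after their values were seen. The members and lists were chosen with earlier results of these data known. Software was R 4.3.3, DESeq2 1.42.0 for size factors, and Python 3.11.15.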

Additional observations from a re-analysis of the deposited data

Results flagged for a closer look

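Signal outside the gene rows was present in the ERCC spike-in rows, which no comparison above uses. They held 0.567% of all entries in library 1, 0.325% in library 2 and 0.233% in library 3, or 455900, 239355 and 174913 counts, far over the 3 counts that a count of 0 allows. Library 1, in which most replication genes were lowest, thus had the highest share of spike-in counts. The labels do not say how much spike-in was added to each library, so no level was scaled to it, and its part in the shift was not tested.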

How the results depend on the processing

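All 47 members reached the minimum under each of the 7 alternatives of scaling, minimum and libraries tried. The median member level of 17.4 CPM per kilobase became 28.6 with the longest transcript, 16.7 to 18.7 with 1 library left out, and 18.6 without the 9 members of which over 10% of exon bases or of words are shared with other genes, an alternative chosen after seeing the data. With the longest transcript the range within Mcm2 to Mcm7 was 2.71-fold, down from 3.48-fold, and within Orc1 to Orc6 11.9-fold, up from 9.94-fold. For these the cause is the length used. The ranges within GINS, the clamp loader and RPA moved by less than the spread between libraries under every scaling, length and left-out library tried. The count of members that differ between libraries was 39 (82.3% of all genes). It ran from 22 without library 1 (51.6% of all genes) to 36 without library 2 (67.0%), and was 43 with plain totals (82.6%). The count of more variable members stayed at 0 in all settings. The shift of library 1 kept its sign in every alternative, between -0.26 and -0.19. That of library 2 turned to -0.035 without library 1, ran up to 0.21 without library 3, and that of library 3 ran from 0.04 without library 1 to 0.19 without library 2, so the shifts of libraries 2 and 3 rest on library 1. Over the 250 bases before the start 9 promoters held an E2F word, down from 15, because the rest of those 15 hold their words only after the start. The share of genes at 1 CPM or more with a word went from 4.60% to 3.83%. The count of members lowest in library 1 was 34, down from 38, with TMM, DESeq2 or totals without Rn45s, all chosen after seeing the data. With protein-coding neighbours alone, chosen after seeing the data, 8 members had a head-to-head neighbour, down from 15, and 13 and 16 at 300 bases and at 2 kb. No paired analysis was possible because there is 1 group. Depth did not limit the members, the lowest of which had 355 counts in a library, but amplified reads and unstated strand do.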
